A study of Homo sapiens with 28 samples.

Results

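The genes described here are 10 genes of the hypoxia response: HIF1A and 9 of its known targets, CA9, VEGFA, ADM, ANGPTL4, NDRG1, EGLN3, BNIP3, BNIP3L and P4HA1. They were chosen by gene symbol, each symbol matched 1 row of the count table, and they are 10 of the 58278 genes counted. All 10 were followed over 8 conditions, with particular attention to the step from tumor to culture.

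The study profiled poly(A) RNA from HCT116 cells, a human colorectal carcinoma line that here carried a luciferase-GFP reporter. The cells were grown as subcutaneous xenografts in NOD SCID mice, which are immunodeficient and were 5 weeks old at injection. The mice received daily oral gavage for 23 days with vehicle (Control, 3 tumors), with Palbociclib at 100 mg per kg, an inhibitor of CDK4 and CDK6 (5 tumors), with the glutaminase inhibitor Telaglenastat at 150 mg per kg, spelled Telaglenestat in the sample labels and from here on (4 tumors), or with both drugs (Combination, 4 tumors). A further 12 libraries came from cultures explanted from residual tumors and grown as monolayers without drug, 3 for each former treatment. The labels did not tie a culture to its tumor, so cultures and tumors were compared as groups. All groups share the HCT116 background, and the tumor libraries also contain whatever RNA of mouse stroma was counted at human genes. In bulk RNA, fewer cells of a type and less RNA of a gene per cell cannot be told apart.

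HIF1 is a transcription factor made of an oxygen-sensitive alpha subunit, encoded by HIF1A, and a stable beta subunit, encoded by ARNT. In oxygenated cells, prolyl hydroxylases of the EGLN family mark the alpha subunit for VHL-dependent degradation, so its activity is set mainly by protein stability and not by the level of its mRNA. When oxygen falls, as in poorly perfused regions of solid tumors, the protein accumulates and binds a short motif, RCGTG, at genes for glycolysis, angiogenesis, pH control, mitophagy and matrix synthesis. Among the targets here, CA9 encodes a membrane carbonic anhydrase that exports acid equivalents, VEGFA the main angiogenic growth factor, ADM the vasodilator peptide adrenomedullin, and ANGPTL4 a secreted inhibitor of lipoprotein lipase. EGLN3 encodes a prolyl hydroxylase that feeds back on HIF, BNIP3 and BNIP3L encode mitophagy receptors, P4HA1 encodes the catalytic subunit of collagen prolyl 4-hydroxylase, and NDRG1 encodes a stress-responsive cytoplasmic protein.

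The core of the hypoxia response element was looked for in RefSeq promoter windows (GRCh38.p14) of 300 bases, from 250 bases before the transcription start to 50 after it. Windows were found for 7 members, and VEGFA, NDRG1 and BNIP3L had no entry. The letters ACGTG or GCGTG were present on either strand in a window of 6 of the 7 members, against 48.4% of all 35116 windows, and ACGTG alone in 4 of the 7, against 21.4%. The exception was EGLN3, and HIF1A and ADM held GCGTG alone. HIF1A had 2 windows and window 2 held no match, so members were counted by gene and the background by window. The stretches around the ACGTG matches are shown 5′ to 3′ on the gene's strand because these 4 genes include CA9 and ANGPTL4, the members with the largest falls in Control, Palbociclib and Combination cultures. Capitals mark ACGTG read on either strand, CACGT being its reverse complement. In BNIP3 the letters CACGTG hold a match on each strand that overlap.
CA9 (chr9:35673850-35673927, plus strand): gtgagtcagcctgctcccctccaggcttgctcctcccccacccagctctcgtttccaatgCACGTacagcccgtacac
ANGPTL4 (chr19:8363905-8363985, plus strand): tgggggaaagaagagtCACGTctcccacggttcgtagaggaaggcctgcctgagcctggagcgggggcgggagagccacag
BNIP3 (chr10:131981992-131982117, minus strand): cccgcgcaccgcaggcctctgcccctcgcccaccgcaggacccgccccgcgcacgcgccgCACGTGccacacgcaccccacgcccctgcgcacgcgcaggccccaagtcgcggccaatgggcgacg
P4HA1 (chr10:73096888-73097012, minus strand): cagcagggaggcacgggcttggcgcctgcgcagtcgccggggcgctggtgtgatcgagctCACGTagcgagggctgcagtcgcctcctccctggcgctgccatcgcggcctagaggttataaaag
The first capital lay 18 bases before the RefSeq start of CA9, 234 before that of ANGPTL4, 134 before that of BNIP3 and 86 before that of P4HA1. The GENCODE spans given below begin farther upstream, and those of CA9, ANGPTL4 and P4HA1 contain these matches. A match of 5 letters is a description of the sequence and not a binding site, and windows of this size leave out distal elements.

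In GRCh38 coordinates of the GENCODE annotation, all 10 are protein-coding genes whose counts sum over their exons. The factor HIF1A lies at chr14:61695513-61748259 on the plus strand. The secreted and membrane proteins were counted as CA9 (ENSG00000107159.12) at chr9:35673856-35681159 on the plus strand, VEGFA (ENSG00000112715.21) at chr6:43770184-43786487 on the plus strand, ADM (ENSG00000148926.9) at chr11:10304680-10307397 on the plus strand and ANGPTL4 (ENSG00000167772.11) at chr19:8363289-8374373 on the plus strand. The intracellular proteins were counted as NDRG1 (ENSG00000104419.14) at chr8:133237171-133302022 on the minus strand, EGLN3 (ENSG00000129521.13) at chr14:33924231-34462774 on the minus strand, BNIP3 (ENSG00000176171.11) at chr10:131966455-131982013 on the minus strand, BNIP3L (ENSG00000104765.15) at chr8:26382898-26505636 on the plus strand and P4HA1 (ENSG00000122884.12) at chr10:73007217-73096974 on the minus strand. Exons of CA9, VEGFA, BNIP3L and P4HA1 are overlapped by a gene on the other strand. The strand setting of the counting was not given in the sources used here, so a part of their counts could come from that partner.

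Each library held between 6273834 and 13815675 counts. Levels are given as CPM, the usual unit that divides a gene's count by the size of its library, with sizes scaled by TMM over all 28 libraries. Epithelial markers were present throughout, with EPCAM at 356 to 562 CPM in tumors and 320.3 to 509.8 CPM in cultures. The 7 epithelial markers summed to 2780.3 to 3331 CPM in Control, 3028 to 4185 CPM in Palbociclib, 1633 to 1798 CPM in Telaglenestat and 2380.5 to 2657 CPM in Combination tumors. The 7 fibroblast markers summed to 48.0 to 192 CPM in tumors, lowest in the Telaglenestat tumors at 48.0 to 61.9 CPM, and to 2.42 to 8.05 CPM in cultures. COL1A1, COL1A2 and COL3A1 made up nearly all of that sum, and LUM was at 0 in every tumor. The 7 macrophage and leukocyte markers summed to 3.02 to 31.0 CPM in tumors and 0.521 to 4.61 CPM in cultures, and the 7 endothelial markers to at most 3.06 CPM anywhere, with CDH5 at 0 in every library. The 5 proliferation markers summed to 484 to 696 CPM in Palbociclib tumors and 502 to 867 CPM in Combination tumors, against 1063 to 1189 CPM in Control tumors, 1254 to 1436 CPM in Telaglenestat tumors and 1585 to 2346 CPM in cultures. Tumor libraries also differed by base composition. When log2 CPM deviations were regressed on GC content, the slope per SD of GC content was 0.246 to 0.257 in Control, 0.0968 to 0.359 in Palbociclib, -0.385 to -0.300 in Telaglenestat and -0.283 to -0.161 in Combination tumors. Every comparison was therefore made a second time with spline offsets for GC content and exonic length in each library, and those values are called corrected.

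HIF1A itself, on chromosome 14, was expressed at similar levels in both settings. In tumors its levels were 219, 268 and 212 CPM in Control, 297, 290.4, 227, 255 and 238 CPM under Palbociclib, 298, 292, 317 and 281 CPM under Telaglenestat and 339.5, 402, 319 and 342 CPM under the Combination. In cultures they were 299.7, 329 and 274 CPM for Control, 333, 297 and 328 CPM for Palbociclib, 265, 241 and 259.5 CPM for Telaglenestat and 303, 353 and 292 CPM for the Combination. The 16 tumors (212 to 402 CPM) and 12 cultures (241 to 353 CPM) overlapped, and HIF1A was the only member for which they did. In the other 9 every culture was below every tumor, as in 4.68% of all 15466 genes tested. From tumor to culture it was higher by 0.37 ± 0.11 (log2 fold change ± SE) in Control (adjusted p = 0.008) and by 0.29 ± 0.10 for Palbociclib (adjusted p = 0.0117), and differed by -0.22 ± 0.10 for Telaglenestat (adjusted p = 0.0897) and -0.15 ± 0.10 for the Combination (adjusted p = 0.276). Both calls depended on the processing: corrected values were 0.00 (adjusted p = 0.979) in Control and -0.28 (adjusted p = 0.0113) for Palbociclib, and the corrected Combination value was also called lower, at -0.28 (adjusted p = 0.0168). Without Control tumor 3 or Control culture 2 the Control call was lost (log2 fold change 0.31, adjusted p = 0.0525, and 0.30, adjusted p = 0.0576), as was the Palbociclib call without Palbociclib culture 1 (0.26, adjusted p = 0.053). An antisense gene, HIF1A-AS1, and another gene model overlap its exons, and a pseudogene exists, so some reads at this locus are uncertain.

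The 9 targets were all lower in culture than in tumor for every treatment. In each of the 4 comparisons of culture with tumor, edgeR called 9 of 10 members lower (quasi-likelihood F test, Benjamini-Hochberg adjusted p under 0.05 over all genes). Over all 15466 genes tested, 23.1% were called lower in Control, 33.7% for Palbociclib, 19% for Telaglenestat and 19.2% for the Combination, and 45.9%, 62.5%, 42.6% and 36.8% were called in either direction. The median log2 fold change of the 10 members was -2.25 in Control, -2.28 for Palbociclib, -1.99 for Telaglenestat and -2.23 for the Combination, against medians over all genes of -0.07, -0.12, 0.06 and -0.04. After correction the member medians were -2.34, -2.36, -2.11 and -2.23, and the 9 targets were again called lower in each. Of all 15466 genes, 2738, 3789, 2524 and 2946 were called lower after correction.

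CA9 and ANGPTL4 fell the most in all treatments but Telaglenestat, where NDRG1 fell more than ANGPTL4, and both were nearly absent from cultures. CA9, on chromosome 9, was at 26.1, 22.8 and 31.4 CPM in Control tumors and at 0.254, 0.512 and 0.285 CPM in Control cultures. In Palbociclib tumors it was at 30.5, 16.3, 46.1, 37.6 and 28.6 CPM and in the cultures at 0.366, 0.998 and 0.156 CPM. The Telaglenestat tumors held 14.2, 24.3, 20.1 and 17.3 CPM and their cultures 2.72, 1.81 and 0.661 CPM, and the Combination tumors held 19.2, 19.2, 16.1 and 17.5 CPM and their cultures 0.77, 0.736 and 0.651 CPM. The lowest tumor was thus above the highest culture for CA9, which was a Telaglenestat culture. The log2 fold change from tumor to culture was -6.19 ± 0.47 in Control (adjusted p = 5.51e-11), -6.13 ± 0.43 for Palbociclib (adjusted p = 2.39e-12), -3.43 ± 0.35 for Telaglenestat (adjusted p = 2.2e-08) and -4.61 ± 0.41 for the Combination (adjusted p = 6.21e-10). These culture values rest on few reads: CA9 had 8 counts in all 3 Control cultures together, 12 in Palbociclib, 47 in Telaglenestat and 19 in Combination cultures. The pooled tumor level was 75.3 times the culture level in Control, with a 95% exact binomial interval of 38.0 to 175, and 10.8 times for Telaglenestat, with an interval of 8.02 to 14.9. Such intervals cover counting error only.

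ANGPTL4, on chromosome 19, showed the same order of magnitude. It was at 26.9, 52.0 and 38.6 CPM in Control tumors and 1.02, 0.128 and 0.427 CPM in Control cultures. In Palbociclib tumors it was at 50.7, 22.8, 58.7, 62.5 and 58.2 CPM, and in their cultures at 0.366, 0.428 and 0.234 CPM. Telaglenestat tumors had the lowest tumor levels, 7.24, 8.09, 5.95 and 4.96 CPM, against 0.864, 1.90 and 0.661 CPM in the cultures, and Combination tumors had 10.02, 19.2, 12.6 and 16.9 CPM against 1.28, 0.46 and 0.13 CPM. No culture reached the lowest tumor. The log2 fold change was -6.17 ± 0.51 in Control (adjusted p = 2.3e-10), -7.23 ± 0.51 for Palbociclib (adjusted p = 3.31e-12), -2.43 ± 0.45 for Telaglenestat (adjusted p = 0.000113) and -4.56 ± 0.49 for the Combination (adjusted p = 2.19e-08). From pooled counts, the tumor level was 74.2 times the culture level in Control (interval 42.3 to 144, 12 culture counts), 159 times for Palbociclib (83.7 to 349, 9 counts), 5.34 times for Telaglenestat (3.67 to 8, 33 counts) and 24.3 times for the Combination (14.8 to 43.0, 16 counts). An antisense gene, RAB11B-AS1, overlaps its exons.

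NDRG1, on chromosome 8, was the most abundant member in tumors by CPM and fell by more than an order of magnitude in 3 of the 4 treatments. It was at 792, 872 and 909.8 CPM in Control tumors, 936, 807, 1082, 1385 and 1042 CPM in Palbociclib tumors, 716, 674, 789.6 and 618 CPM in Telaglenestat tumors and 798, 881, 746 and 924 CPM in Combination tumors. The cultures held 46.5, 38.3 and 51.4 CPM for Control, 37.6, 67.6 and 32.9 CPM for Palbociclib, 116, 94.2 and 66.3 CPM for Telaglenestat and 83.3, 74.7 and 49.7 CPM for the Combination. Every tumor was above every culture by a wide margin, and the 2 highest of the Telaglenestat cultures were the highest of all cultures. The tumor level was 18.9-fold that of culture in Control (log2 fold change -4.24 ± 0.24, adjusted p = 2.03e-13), 23.1-fold for Palbociclib (-4.53 ± 0.24, adjusted p = 1.29e-14), 7.58-fold for Telaglenestat (-2.92 ± 0.22, adjusted p = 7e-11) and 12.1-fold for the Combination (-3.59 ± 0.23, adjusted p = 1.39e-12).

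The secreted factors VEGFA and ADM fell less. ADM ranged from 37.6 to 92.7 CPM in the 16 tumors and from 7.44 to 15.3 CPM in the 12 cultures, and fell by 2.72 ± 0.22 on the log2 scale in Control, by 2.83 ± 0.21 for Palbociclib, by 1.85 ± 0.21 for Telaglenestat and by 2.13 ± 0.21 for the Combination. VEGFA, on chromosome 6, ranged from 88.5 to 185 CPM in tumors and from 36.8 to 86.7 CPM in cultures, so that its settings were separated by a narrow gap. The highest culture was Telaglenestat culture 2, at 86.7 CPM against 54.9 and 49.4 CPM in the other two of its group. The log2 fold change of VEGFA was -1.39 ± 0.20 in Control (adjusted p = 2.36e-06), -1.70 ± 0.19 for Palbociclib (adjusted p = 1.07e-08), -0.55 ± 0.18 for Telaglenestat (adjusted p = 0.0185) and -1.14 ± 0.19 for the Combination (adjusted p = 2.07e-05). The Telaglenestat call was lost without Telaglenestat culture 1 (-0.44, adjusted p = 0.0809) or 3 (-0.39, adjusted p = 0.128), and its corrected value was -0.48 (adjusted p = 0.006). Telaglenestat culture 2 also stood apart in GC slope, at 0.418 against -0.132 to 0.178 in the other cultures.

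The intracellular proteins P4HA1, BNIP3L, EGLN3 and BNIP3 were lower in cultures than in tumors after every treatment. P4HA1, on chromosome 10, ranged from 272 to 529 CPM in tumors and 58.5 to 97.1 CPM in cultures, with log2 fold changes of -2.28 ± 0.13 in Control, -2.29 ± 0.12 for Palbociclib, -2.34 ± 0.12 for Telaglenestat and -2.54 ± 0.13 for the Combination. The mitophagy receptor BNIP3L ranged from 253 to 451 CPM in tumors and 56.5 to 144 CPM in cultures, with log2 fold changes of -2.22 ± 0.18, -2.02 ± 0.17, -2.03 ± 0.17 and -2.14 ± 0.17 in the same order. The feedback hydroxylase EGLN3 ranged from 22.4 to 44.3 CPM in tumors and 4.07 to 10.8 CPM in cultures, and its log2 fold changes were -2.15 ± 0.24, -2.27 ± 0.22, -1.96 ± 0.22 and -2.33 ± 0.23. BNIP3, the second mitophagy receptor, fell less than BNIP3L, from 92.6 to 197 CPM in tumors to 47.8 to 79.8 CPM in cultures, with log2 fold changes of -1.44 ± 0.13, -0.96 ± 0.12, -1.29 ± 0.12 and -1.09 ± 0.12. The highest adjusted p among these 16 values was 9.74e-08, and the calls remained without any single library. BNIP3 has many pseudogenes and EGLN3 has 1, so part of their counts may have been split with these copies.

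**Figure D1:**
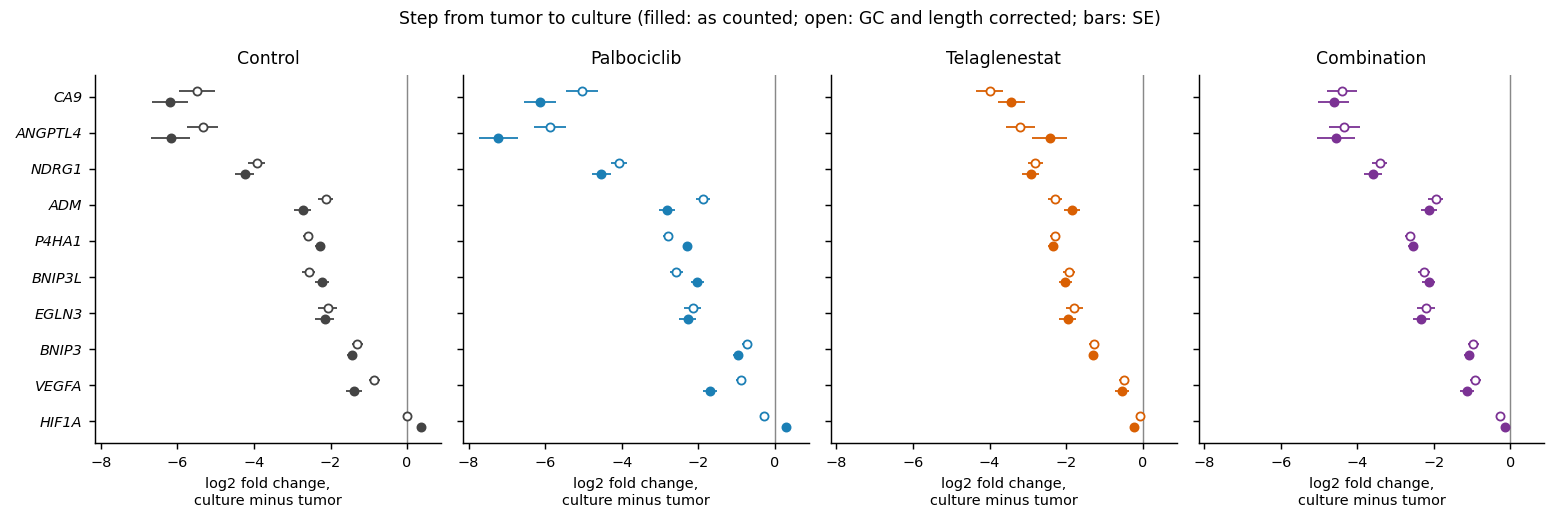
Log2 fold change from tumor to culture for each gene and treatment, with SE, as counted (filled) and after correction for GC content and length (open). The 9 targets lie left of 0 in every panel, CA9, ANGPTL4 and NDRG1 farthest, and HIF1A lies near 0.

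The same step was read in 3 further lists of the pathway. Of 37 tested genes in a list of other HIF1 targets, 29 were called lower in Control cultures, 30 for Palbociclib, 23 for Telaglenestat and 27 for the Combination, with medians of -1.42, -1.68, -0.92 and -1.33. The most reduced in Control were CXCR4, a chemokine receptor, at -4.86 ± 0.72, MIR210HG, the host transcript of a hypoxia-responsive microRNA, at -4.04 ± 0.69, and PFKFB4, a regulator of glycolytic flux, at -3.60 ± 0.23. The single gene of that list called higher in Control, Palbociclib and Combination cultures was TFRC, the transferrin receptor, at 1.69 ± 0.13, 2.34 ± 0.11 and 1.68 ± 0.12. In Telaglenestat cultures 4 genes were higher, led by SLC16A3, a lactate exporter, at 1.38 ± 0.37, NOS3, an endothelial nitric oxide synthase, at 1.09 ± 0.29, and TFRC at 1.01 ± 0.12. These values of single genes are as counted. After correction 25, 31, 25 and 26 of the 37 were lower, with medians of -1.10, -1.44, -1.01 and -1.43, and 3 were higher in Telaglenestat cultures. Over all 15466 genes 2738, 3789, 2524 and 2946 were then lower, and 3795 were higher in Telaglenestat cultures.

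Of the 18 glycolytic targets, 16 were lower in Control cultures, 17 for Palbociclib, 8 for Telaglenestat and 12 for the Combination, with medians of -1.06, -1.24, -0.17 and -0.64. The glucose transporter SLC2A3 fell in all 4, with log2 fold changes of -3.28 ± 0.20, -3.85 ± 0.20, -3.35 ± 0.20 and -3.67 ± 0.20. In Control cultures the glycolytic enzymes ALDOC and ENO2 were at log2 fold changes of -3.57 ± 0.25 and -2.72 ± 0.16. After correction 14, 14, 11 and 13 of the 18 were lower, where the totals over all genes were those given for the other targets. Of 17 tested HIF pathway regulators, as many as 7 were called in each direction for Palbociclib, where 4457 of all 15466 genes were higher and 5205 lower. Medians over the list were -0.03, -0.15, 0.02 and 0.03 in the order of treatments. The regulators were thus called in both directions, as all genes were. In Control cultures the chaperone HSP90AA1 was higher by 1.06 ± 0.20 and the VHL complex subunits ELOC and CUL2 by 1.00 ± 0.17 and 0.85 ± 0.10, and ARNT2, a beta subunit paralog, was at -1.73 ± 0.27, the VHL complex subunit ELOB at -1.13 ± 0.42 and CITED2, an inhibitor of HIF transactivation, at -0.90 ± 0.17. Over the same step all 3 tested fibroblast markers were lower for every treatment. Of the 3 tested leukocyte markers, 3 were lower in Control, Palbociclib and Combination cultures and 1 in Telaglenestat cultures. The 5 proliferation markers were all higher in Control, Palbociclib and Combination cultures, and 3 of the 5 were in Telaglenestat cultures. Of the 7 epithelial markers, 6 were lower in Control (median -0.78), Palbociclib (median -1.57) and Combination cultures (median -0.84), whereas 5 were higher and 2 lower in Telaglenestat cultures (median 0.55). After correction 3, 5 and 6 were lower in Control, Palbociclib and Combination cultures (medians -0.28, -0.91 and -0.67), and 1 was higher for Palbociclib. In Telaglenestat cultures only 1 was then higher and 2 lower (median 0.19). The part of these markers in the differences was not tested. Endothelial markers were near 0 in both settings.

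**Figure D2:**
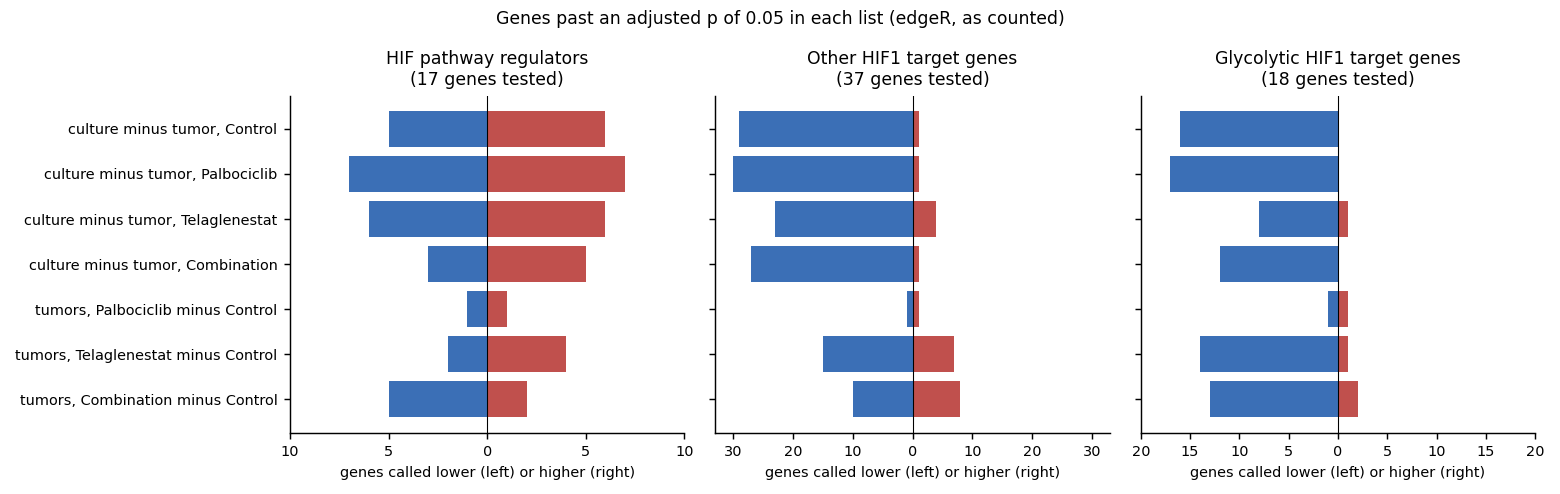
Number of genes of each list called lower (bars to the left) or higher (bars to the right) from tumor to culture for each treatment and in treated against Control tumors. In the step to culture the target lists lie almost wholly to the left (up to 30 of 37 and 17 of 18), whereas the regulators lie on both sides.

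Within tumors, the question was how treatment changed the hypoxia genes. Palbociclib changed none of the 10 at an adjusted p under 0.05 with edgeR, where 6.16% of 14848 genes were called. At an unadjusted p under 0.05 there were 3, NDRG1 (0.30 ± 0.13), BNIP3 (-0.33 ± 0.10) and P4HA1 (0.26 ± 0.09). The share of all genes at that unadjusted threshold is not given. DESeq2 called 2 members, and 1150 of all 14846 genes. The corrected fit called P4HA1 alone (0.31, adjusted p = 0.0464), where 7.72% of all genes were called. NDRG1 was called without Palbociclib tumor 2 (0.38, adjusted p = 0.0429) and BNIP3 without Palbociclib tumor 3 (-0.39, adjusted p = 0.0286), so that the count then was 1. Palbociclib tumor 2 had the lowest CA9, VEGFA, ADM, ANGPTL4, NDRG1 and EGLN3 of its group.

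Telaglenestat tumors differed from Control in 8 of the 10 members, 3 higher and 5 lower, where 51.1% of all tested genes were called. ANGPTL4 was 6.40-fold lower, with 4.96 to 8.09 CPM against 26.9 to 52.0 CPM, a log2 fold change of -2.68 ± 0.31 (adjusted p = 6.95e-07), and it stayed lower after correction (-1.29 ± 0.25, adjusted p = 0.00109). The other 7 calls did not remain after correction. ADM was at 48.9, 44.5, 54.2 and 41.6 CPM against 61.7, 92.7 and 68.6 CPM, which is -0.76 ± 0.17 as counted (adjusted p = 0.000909) and 0.23 corrected (adjusted p = 0.338). VEGFA was at 98.2, 90.0, 97.0 and 88.5 CPM against 134, 159 and 127 CPM, which is -0.69 ± 0.16 as counted (adjusted p = 0.00106) and -0.13 corrected (adjusted p = 0.62). CA9 was at -0.60 ± 0.24 (adjusted p = 0.0395), overlapped with Control, and turned to 0.54 corrected (adjusted p = 0.1), and NDRG1 was at -0.40 ± 0.13 (adjusted p = 0.0144) and -0.09 corrected (adjusted p = 0.691).

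The members that were higher were the 3 with the lowest GC content. BNIP3L was at 389, 441, 451 and 382 CPM against 253, 305 and 275 CPM, a log2 fold change of 0.47 ± 0.09 (adjusted p = 0.000297), and 0.12 corrected (adjusted p = 0.456). P4HA1 was at 400.3, 408, 471 and 374 CPM against 272, 291 and 296 CPM, a log2 fold change of 0.42 ± 0.10 (adjusted p = 0.00126), and 0.11 corrected (adjusted p = 0.525). HIF1A was 0.24 ± 0.10 higher (adjusted p = 0.0476) and -0.17 corrected (adjusted p = 0.28). BNIP3, at 151, 162, 197 and 178 CPM against 141, 158 and 124 CPM, was not called as counted (0.18 ± 0.11, adjusted p = 0.176) and was higher after correction (0.42 ± 0.11, adjusted p = 0.0155). Across the 10 members the log2 fold change and the GC content of the longest transcript, from 36.4% for HIF1A to 63.3% for ANGPTL4, had a Pearson r of -0.80 and a Spearman rho of -0.89, a description over genes of the same libraries, and the corrected r was -0.24. All Telaglenestat tumors had a negative GC slope and all Control tumors a positive slope, so slope and treatment cannot be told apart. The correction takes out the trend with GC content in each library, and a treatment effect that followed GC content would be taken out with it. The HIF1A call was lost without Control tumor 1 or 3, Palbociclib tumor 4, Telaglenestat tumor 1, 2 or 3, or Combination tumor 1, 3 or 4, with values from 0.18 to 0.24. The CA9 call was lost without Control tumor 1 or 3 or Telaglenestat tumor 1, 3 or 4, with values from -0.62 to -0.47. The NDRG1 call was lost without Control tumor 3 (-0.36, adjusted p = 0.0604), and the count of members without that tumor was 5.

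**Figure D3:**
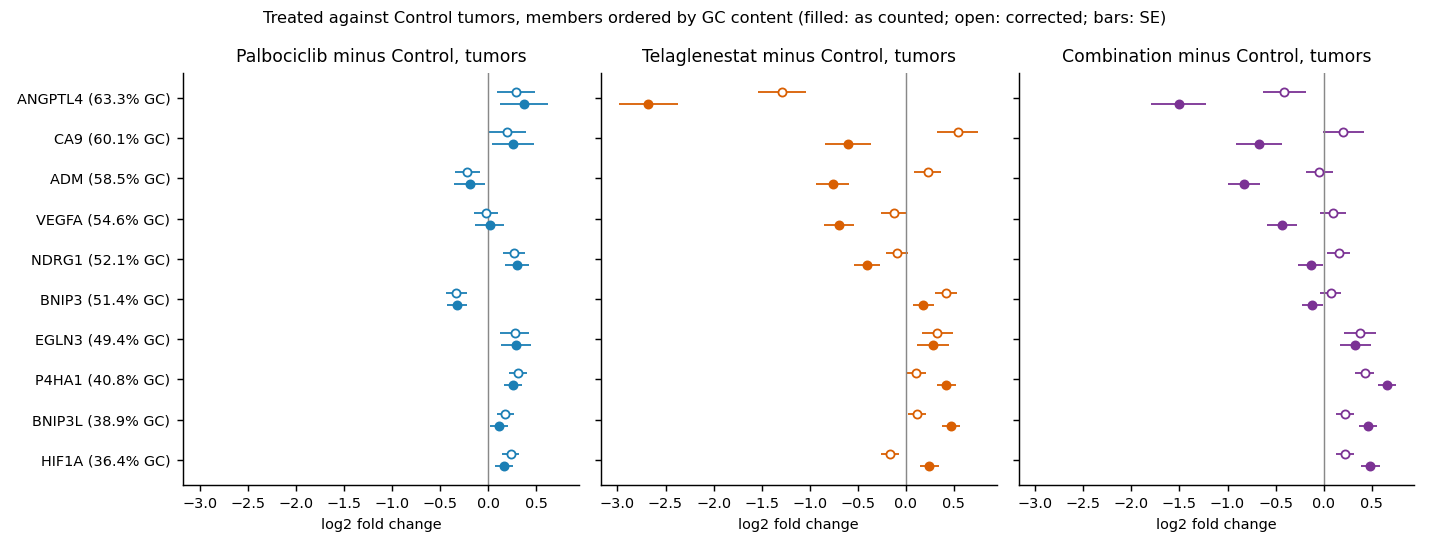
Log2 fold change of each treated tumor group against Control tumors, with SE, as counted (filled) and corrected (open), genes ordered by GC content. For Telaglenestat and the Combination the filled points run from right at low GC to left at high GC, and of the open points ANGPTL4 under Telaglenestat, at -1.29, lies farthest from 0.

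Combination tumors differed from Control in 7 members, 3 higher and 4 lower, where 44.5% of genes were called. ANGPTL4 was again the most reduced, at 10.02, 19.2, 12.6 and 16.9 CPM, a log2 fold change of -1.51 ± 0.28 (adjusted p = 0.000214), and -0.41 corrected (adjusted p = 0.195). ADM was at -0.83 ± 0.17 (adjusted p = 0.000511), CA9 at -0.67 ± 0.24 (adjusted p = 0.0268) and VEGFA at -0.43 ± 0.16 (adjusted p = 0.0284). None of these was called after correction, where CA9 and VEGFA changed sign (0.21 and 0.10) and ADM was at -0.04. P4HA1 was at 517, 529, 433 and 463 CPM, above every Control tumor, by 0.66 ± 0.10 (adjusted p = 1.76e-05), and was the only member still called after correction (0.43 ± 0.10, adjusted p = 0.00292). HIF1A (0.49 ± 0.10, adjusted p = 0.000475) and BNIP3L (0.46 ± 0.09, adjusted p = 0.000457) were higher as counted only. The CA9 call was lost without Control tumor 1 (-0.69, adjusted p = 0.0529), Control tumor 3 (-0.54, adjusted p = 0.12) or Combination tumor 3 (-0.63, adjusted p = 0.0638). The VEGFA call was lost without Control tumor 2 (-0.34, adjusted p = 0.139) or Combination tumor 1 (-0.40, adjusted p = 0.0675), 2 (-0.39, adjusted p = 0.0765) or 3 (-0.40, adjusted p = 0.068).

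Against Palbociclib tumors, the Combination was higher for 3 members and lower for 5, where 47.6% of genes were called. ANGPTL4 was at -1.88 ± 0.26 (adjusted p = 6.4e-06) and -0.70 corrected (adjusted p = 0.0206). BNIP3 was 0.21 ± 0.10 (adjusted p = 0.0802) as counted and 0.40 corrected (adjusted p = 0.00833), and the other calls did not remain after correction. Of these, HIF1A went from 0.32 ± 0.09 as counted to -0.0095 corrected, CA9 from -0.93 ± 0.21 to 0.0060, VEGFA from -0.45 ± 0.14 to 0.12 and ADM from -0.64 ± 0.15 to 0.17, so that their direction turned, while NDRG1, BNIP3L and P4HA1 kept theirs. After correction 15.3% of all genes were called. BNIP3 was called as counted without Palbociclib tumor 3 (0.27, adjusted p = 0.0277). Against Telaglenestat tumors only 2 members were called, where 18.8% of genes were. ANGPTL4 was 2.25-fold higher in the Combination (1.17 ± 0.32, adjusted p = 0.0141, corrected 0.88, adjusted p = 0.0247), with 10.02 to 19.2 CPM against 4.96 to 8.09 CPM and no overlap, and BNIP3 was lower (-0.30 ± 0.10, adjusted p = 0.0457, corrected -0.34, adjusted p = 0.0308). The corrected fit also called HIF1A (0.39, adjusted p = 0.00401) and P4HA1 (0.32, adjusted p = 0.0204) higher. It called 15.7% of all genes. The BNIP3 call was lost without Control tumor 1, without Telaglenestat tumor 2, 3 or 4 and without any of the 4 Combination tumors, with values from -0.33 to -0.24. HIF1A was called as counted without Palbociclib tumor 2 (0.25, adjusted p = 0.0403) or 3 (0.25, adjusted p = 0.046) or Combination tumor 1 (0.29, adjusted p = 0.047). P4HA1 was called without Palbociclib tumor 2 (0.25, adjusted p = 0.0499) or 4 (0.24, adjusted p = 0.0294), Telaglenestat tumor 3 (0.29, adjusted p = 0.0385) or Combination tumor 3 (0.29, adjusted p = 0.0444). The count of members thus ran from 1 to 4 over the 16 tumors left out.

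The glycolytic list moved down in the same tumors: 14 of 18 genes were lower under Telaglenestat (median -0.77) and 13 of 18 under the Combination (median -0.60), where 4238 and 3998 of all 14848 genes were lower. After correction 8 and 9 were lower and 1 and 3 higher, with medians of -0.23 and -0.19. Over all 14848 genes, 1247 and 1938 were then lower and 940 and 1971 higher. Under Telaglenestat the most reduced were the enzymes ALDOA (-2.15 ± 0.19, corrected -1.60), PFKL (-2.02 ± 0.18, corrected -0.59) and GPI (-1.39 ± 0.14, corrected -0.98), all called in both fits, and LDHA was higher as counted only (0.23 ± 0.09). Palbociclib raised SLC2A1, the main glucose transporter, by 0.39 ± 0.08 and lowered ALDOC (-0.39 ± 0.10). Of the 37 other targets, 7 were higher and 15 lower under Telaglenestat and 8 and 10 under the Combination. Over all 14848 genes, 3352 were higher and 4238 lower under Telaglenestat, and 2614 and 3998 under the Combination. After correction 3 of the 37 were higher and 6 lower under Telaglenestat, and 6 and 6 under the Combination. The corrected totals over all genes are those given with the glycolytic list. As counted, SLC16A3 was the most reduced in both (-2.38 ± 0.23 and -2.08 ± 0.22), followed by the lysyl hydroxylase PLOD1 (-1.95 ± 0.14 and -1.53 ± 0.14). MET, a receptor tyrosine kinase, rose most under Telaglenestat as counted (0.54 ± 0.10). Among regulators, ELOB and EGLN2, a prolyl hydroxylase, were lower under Telaglenestat (-3.16 ± 0.30 and -1.45 ± 0.22) and the Combination (-2.37 ± 0.28 and -1.30 ± 0.22), and both remained called after correction. EPAS1, which encodes the HIF2 alpha subunit, was higher under Palbociclib by 0.65 ± 0.11 (adjusted p = 0.000561).

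In cultures, grown without drug, none of the members tested was called between former treatments, where almost no gene was. CA9 and ANGPTL4, with 1 to 22 counts in each culture, did not pass the filter on low counts, which left 8 members. edgeR called 0 of these 8 in each of the 5 comparisons, against 0.00715% of 13985 genes for the Combination against Control and 0% in the others, and DESeq2 also called 0. At an unadjusted p under 0.05 there were 0 for Palbociclib, 5 for Telaglenestat and 4 for the Combination against Control, 1 for the Combination against Palbociclib and 1 for the Combination against Telaglenestat. The share of all genes at that unadjusted threshold is not given, so these counts have no background. The largest value was that of NDRG1 in Telaglenestat cultures, at 116, 94.2 and 66.3 CPM against 46.5, 38.3 and 51.4 CPM in Control, a log2 fold change of 1.01 ± 0.28 (adjusted p = 0.711). BNIP3L was at 144, 77.9 and 85.5 CPM against 56.5, 64.2 and 58.0 CPM (0.77 ± 0.23, adjusted p = 0.711), and P4HA1 at 97.1, 69.8 and 77.4 CPM against 59.0, 58.5 and 58.8 CPM (0.46 ± 0.14, adjusted p = 0.711). For 4 members, NDRG1, BNIP3, BNIP3L and P4HA1, every Telaglenestat culture was above every Control culture, and for HIF1A every one was below, where 8.98% of genes did not overlap. Without a filter on low counts, NDRG1 (adjusted p = 6.37e-07) and BNIP3L (adjusted p = 0.000421) were called in Telaglenestat cultures and NDRG1 (adjusted p = 0.0324) and BNIP3L (adjusted p = 0.00898) in Combination cultures. That fit called 120 and 175 of 30911 genes, where the filtered fit called 0 and 1. These calls were thus made by the unfiltered fit and not by the filtered fit or DESeq2.

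Whether the step to culture differed between treatments was tested as an interaction, the step of the treated group minus that of Control. For Palbociclib 0 members were called, where 1.39% of genes were, with 1 at an unadjusted p under 0.05 (BNIP3, 0.48 ± 0.17). For the Combination 0 were called, where 2.91% of genes were, with 3 at an unadjusted p under 0.05, HIF1A (-0.52 ± 0.15), CA9 (1.57 ± 0.76) and NDRG1 (0.65 ± 0.30). DESeq2 called 0 members for either, and the shares of all genes at the unadjusted threshold are not given. The HIF1A value of the Combination was called without Control tumor 2 (-0.63, adjusted p = 0.0432) or without any of the 3 Telaglenestat cultures (-0.52, adjusted p from 0.0349 to 0.0479). For Telaglenestat 6 members were called, 5 with a smaller fall than in Control and HIF1A lower, where 34.1% of genes were. The interaction was 3.74 ± 0.77 for ANGPTL4 (adjusted p = 0.000802), 2.76 ± 0.66 for CA9 (adjusted p = 0.00267), 1.32 ± 0.30 for NDRG1 (adjusted p = 0.00168), 0.88 ± 0.29 for ADM (adjusted p = 0.0223), 0.84 ± 0.27 for VEGFA (adjusted p = 0.0165) and -0.59 ± 0.15 for HIF1A (adjusted p = 0.00439). After correction only NDRG1 was called (1.13 ± 0.27, adjusted p = 0.0117), ANGPTL4 was at 2.15 (adjusted p = 0.0581) and CA9 at 1.49 (adjusted p = 0.236), and ADM turned to -0.17 (adjusted p = 0.807). By group mean, NDRG1 was lower in Telaglenestat than in Control tumors and higher in the cultures, so that both differences entered its interaction as counted. The tumor difference was called in the fit of tumors. It was not called in the fit of all 28 libraries (-0.29, adjusted p = 0.218) or after correction (-0.09, adjusted p = 0.691). The culture difference was not called in the fit of cultures. The VEGFA call was lost without Control tumor 2 (0.74, adjusted p = 0.0502), Control culture 2 (0.74, adjusted p = 0.0597) or Telaglenestat culture 2 (0.55, adjusted p = 0.118). The ADM call was lost without Control tumor 2 (0.69, adjusted p = 0.0828), Control culture 1 (0.80, adjusted p = 0.0577) or 2 (0.81, adjusted p = 0.0653), or Telaglenestat culture 2 (0.81, adjusted p = 0.0696) or 3 (0.77, adjusted p = 0.0536).

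Most pairs of members had a positive correlation among tumors of the same treatment, and 1 pair passed the test. After the mean of the treatment group was subtracted from each log2 CPM, 41 of the 45 pairs had a positive Pearson r over the 16 tumors, 16 pairs had an r above 0.5, and the median r was 0.36. BNIP3L and P4HA1 were the closest pair (r = 0.86, Spearman rho = 0.84, permutation p within groups = 0.00018 and 0.00039, adjusted over 45 pairs 0.0081 and 0.0175), and r was 0.81 without the 2 tumors farthest from the median of BNIP3L. This was the only pair with an adjusted permutation p under 0.05. VEGFA and NDRG1 had an r of 0.81 and a rho of 0.59 (adjusted permutation p = 0.0531 and 0.153), which fell to 0.58 without 2 tumors, and ADM and ANGPTL4 an r of 0.76 and a rho of 0.76 (adjusted permutation p = 0.0531 and 0.1), 0.73 without 2 tumors. The negative values were all with HIF1A: CA9 (r = -0.43), VEGFA (r = -0.32), NDRG1 (r = -0.12) and ADM (r = -0.09). The tumors of a pair share their libraries and so their depth and GC slope. The same counts were not made over pairs of other genes, so the numbers of positive r have no background.

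Among 9426 other protein-coding genes with a mean of at least 3 log2 CPM in tumors, those whose deviations were most like the mean scaled deviation of the members were SLC2A1 (r = 0.89 over 16 tumors), HILPDA (0.87), TNFRSF10D (0.86), PFKFB4 (0.86) and SYNE3 (0.85). Of the members themselves NDRG1 was closest to that mean (r = 0.88) and HIF1A farthest (r = 0.13), the mean including each of them. SLC2A1 encodes a glucose transporter, HILPDA a lipid droplet protein, TNFRSF10D a decoy receptor for TRAIL, PFKFB4 a bifunctional enzyme of fructose bisphosphate metabolism and SYNE3 a nuclear envelope protein.

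Per kilobase of exonic sequence, the order of the members changed between the settings. In Control tumors P4HA1 was at 92.5 ± 4.2 CPM per kilobase (SD, n = 3), followed by NDRG1 at 87.3 ± 6.1, BNIP3L at 64.5 ± 6.1, HIF1A at 45.3 ± 5.9, ADM at 27.3 ± 6.0, BNIP3 at 26.4 ± 3.2, CA9 at 16.03 ± 2.6, ANGPTL4 at 15.8 ± 5.1, VEGFA at 9.70 ± 1.2 and EGLN3 at 3.48 ± 0.41. P4HA1 and NDRG1, ADM and BNIP3, and CA9 and ANGPTL4 were neighbours that differed by less than the larger of their SDs. In Control cultures HIF1A led at 58.4 ± 5.3, ahead of P4HA1 at 19.003 ± 0.085, BNIP3L at 13.8 ± 0.96 and BNIP3 at 9.72 ± 0.64, with CA9 and ANGPTL4 last at 0.210 and 0.211. NDRG1 was next to P4HA1 in Control tumors and below BNIP3 in Control cultures, at 4.62 ± 0.68. With the longest transcript as the length, NDRG1 stood first in Control tumors at 215 and P4HA1 second at 101.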

How the data were processed

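Poly(A) RNA of 16 tumors and 12 cultures was sequenced, and the deposited values are raw counts of reads per gene, 1 column a library, made by the authors with no normalization (CASAVA 1.8, STAR and hg38 are named in the submitters' processing notes). The annotation release and strand setting were not given in the sources used here. The members and lists were chosen with earlier results of these data known. Groups were taken from the sample labels. Of 58278 gene rows, 57940 matched GENCODE 29, which gave exons, GC content and lengths. No column was left out, and no pair of libraries was identical.

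Counts were tested with edgeR 4.0.16 in R 4.3.3 (quasi-likelihood test, two-sided, TMM, filterByExpr with a minimum count of 10, Benjamini-Hochberg adjustment over all genes tested, threshold 0.05). The fits held 16 tumors (14848 genes), 12 cultures (13985 genes) and all 28 libraries (15466 genes, steps and interactions), so that groups share 1 estimate of the spread. Comparisons against Control share its libraries. SE was the log2 fold change divided by the root of the F statistic, and log2 CPM used a prior count of 2. Counts at an unadjusted p under 0.05 are given without the share of all genes at that threshold. The correction fitted robust splines (4 degrees of freedom each for GC content of the longest transcript and log2 exonic length, MASS 7.3.60.0.1) to each library and used them as offsets. Pairs of members were tested by 100000 permutations within groups (scipy 1.17.1). Alternatives were DESeq2 1.42.0, its size factors in edgeR, other filters, protein-coding genes, other sets of libraries, a replicate block and each library left out. The scripts were tested on simulated data.

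All 10 members are described. Of each list, at most the 3 largest rises and 3 largest falls past the threshold are named, and the 5 genes most like the members. P-values measure the spread between these tumors or cultures. The labels name no animals, and the cultures were described as independent lines, so this spread may in part be technical. With totals of 6273834 to 13815675 counts a library, CA9 and ANGPTL4 had 1 to 22 counts in each culture, which limits the precision of their folds.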

Additional observations from a re-analysis of the deposited data

Results flagged for a closer look

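In the Palbociclib tumors, ANGPTL4 was lowest in tumor 2, at 22.8 CPM against 50.7 to 62.5 CPM in the other 4, a gap of 0.792 of the range of the group. Of the 30 groups of 4 or 5 tumors examined for the members this was the 1 that passed the limit for a sample far from the others, and chance alone would give about 1 in 20. That tumor also had the lowest GC slope of its group, 0.0968, and its part in the value was not tested.

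The change from tumor to culture differed between Telaglenestat and Control for 6 members by the interaction term of the edgeR fit, of 30 interactions examined, and 34.1% of all genes were called in the same interaction. The difference in log2 fold change was 3.74 for ANGPTL4, 2.76 for CA9, 1.32 for NDRG1, 0.88 for ADM, 0.84 for VEGFA and -0.59 for HIF1A. After the GC and length correction the NDRG1 term alone of the 10 was called, at 1.13 (adjusted p = 0.0117). The fall of NDRG1 to culture was smaller for Telaglenestat than for Control in both fits.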

How the results depend on the processing

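Across the settings tried, 139 recomputed summary values stayed close to the reported value and 27 moved, and for single members 1399 values kept direction and call, 48 gained a call, 48 lost one and 21 changed sign. The GC and length correction made the largest difference. It left 2 members called for Telaglenestat against Control tumors, 1 for the Combination against Control, 2 for the Combination against Palbociclib, and 1 for the Telaglenestat interaction, where 14.7%, 26.3%, 15.3% and 4.80% of all genes were called, so that the members' shares lay near or below those of all genes in the 3 tumor comparisons. The members' counts were the same when the replicate block was added. The correction raised Palbociclib against Control to 1 and the Combination against Telaglenestat to 4, the latter with the block also. Without the block, 7.72% and 15.7% of all genes were called there. Values that changed sign were, without and with the block, -0.17 and -0.15 for HIF1A, 0.54 and 0.55 for CA9 and 0.23 and 0.23 for ADM (Telaglenestat against Control), and 0.21 and 0.22 for CA9 and 0.10 and 0.037 for VEGFA (Combination against Control). Against Palbociclib the Combination gave -0.0095 and -0.029 for HIF1A, 0.12 and 0.16 for VEGFA, 0.17 and 0.23 for ADM, and 0.0060 for CA9 without the block. HIF1A in the Palbociclib step became -0.28 and -0.30, and ADM in the Telaglenestat interaction -0.17 and -0.16. Palbociclib against Control gave 2 with DESeq2 and 3 with no filter, where 1150 of 14846 and 1154 of 32828 genes were called. It gave 1 with at least 10 counts in every library or with protein-coding genes, where 1037 of 11609 and 996 of 12693 were. The Combination against Telaglenestat gave 4 with DESeq2, with either filter or with the compared groups alone, and 1 in the fit of all 28 libraries. The genes called were 2956 of 14846 (DESeq2), 2753 of 32828 (no filter) and 2918 of 11609 (at least 10 counts in every library). They were 2698 of 13306 with the compared groups alone and 1778 of 15466 in the fit of all 28 libraries. With no filter, 2 members were called in Telaglenestat and 2 in Combination cultures, where 120 and 175 of 30911 genes were called. The Combination interaction gave 1 with either filter or protein-coding genes and 2 with the compared groups alone. The cause of these changes was not tested. With single libraries left out, counts ran from 0 to 1 for Palbociclib, from 5 to 8 for Telaglenestat, from 1 to 4 for the Combination against Telaglenestat and from 0 to 1 for the Combination interaction. By longest transcript, NDRG1 was at 215 in place of 87.3 CPM per kilobase. Correction took the genes called for Telaglenestat tumors from 7590 to 2187, and the fit of all 28 libraries moved their median log2 fold change to 0.14. DESeq2 size factors moved the genes called in the Combination interaction from 123 higher and 327 lower to 138 and 143. Replicate numbers did not pair the samples: same-numbered libraries correlated above 0.1 in 0 of 21 tumor pairs, 3 of 18 culture pairs and 1 of 48 mixed pairs. The replicate block, without correction, ended the call of CA9 in Telaglenestat tumors (adjusted p = 0.0555) and added HIF1A for the Combination against Telaglenestat (adjusted p = 0.0458).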
